A study of Mus musculus with 9 samples.

Results

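Histone lysine methyltransferases and demethylases were examined as 1 group of 65 genes among the 47729 genes counted in midbrain dopamine (DA) neurons of mouse embryos. The members were picked by gene symbol from the Kmt2, Setd, Suv39h, Suv420h, Ehmt, Ezh, Nsd, Whsc1, Ash1l, Smyd, Prdm and Kdm families. The group itself was chosen with earlier results of these data known. Of the 65 genes, 63 had enough counts to be tested. The other two were Prdm14, at or under 0.383 CPM (read counts scaled to a common library total) in every library, and Kdm4dl, an annotated pseudogene at or under 0.273 CPM. The libraries came from Pitx3-Cre/+ embryos of strain C57/Bl6 at E15.75 that carried a Rosa26 reporter in which Cre switches on YFP, and YFP-positive cells were sorted. They had 0, 1 or 2 floxed Dot1l alleles and are named Dot1l(+/+) (n = 3), Dot1l(fl/+) (n = 3) and Dot1l(fl/fl) (n = 2), with Dot1l(fl/fl) 3 not analysed here. All groups therefore shared the Cre allele, which is expressed from the Pitx3 locus in postmitotic DA neurons, and each library was a pool of embryos, so that differences between libraries include differences in the make-up of the pools. Per the study's methods the pools took 1 embryo of each genotype from a pregnant female, but neither they nor the labels say which libraries share litters, and p-values measure the spread between these pools.

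Enzymes that add methyl groups to histone lysines (writers) nearly all share the SET domain. Those that remove them (erasers) are the flavin-dependent Kdm1 enzymes and the larger Jumonji family. The position matters: methylation of H3K4 is found at active promoters and enhancers, that of H3K36 along transcribed gene bodies, and that of H3K9 and H3K27 at silenced chromatin. Dot1l, which methylates H3K79 and has no SET domain, lies outside the group, so the data address whether transcripts of the other lysine methyl enzymes differed when Dot1l was floxed. In neurons, loss-of-function variants of several of these genes, among them Kmt2d, Kdm6a, Nsd1, Ehmt1 and Kdm5c, are known causes of developmental disorders in humans.

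The promoters of 4 H3K4 enzymes are shown, because H3K4 writers and erasers held 5 of the 16 members with the smallest p-values when Dot1l(fl/fl) was set against Dot1l(+/+). This choice was made after the values were seen, and 7 writers and 6 erasers of H3K4 were among the 63 members tested. Each window runs from 250 bases before the RefSeq transcription start to 50 after it on GRCm38.p6, written 5′ to 3′ along the gene, and capitals mark any match, on either strand, to GGGCGG (the Sp/KLF box), CCAAT (the NF-Y box), CCGGAAG (an ETS site), AAGATGG (the core of a YY1 site), TGACGTCA (the cAMP response element) or TATAAA (the TATA box). Kmt2c lies at chr5:25498734-25499033 on the minus strand, Kmt2d at chr15:98871156-98871455 on the minus strand, Kdm5b at chr1:134559928-134560227 on the plus strand and Kdm5c at chrX:152232977-152233276 on the plus strand.
Kmt2c: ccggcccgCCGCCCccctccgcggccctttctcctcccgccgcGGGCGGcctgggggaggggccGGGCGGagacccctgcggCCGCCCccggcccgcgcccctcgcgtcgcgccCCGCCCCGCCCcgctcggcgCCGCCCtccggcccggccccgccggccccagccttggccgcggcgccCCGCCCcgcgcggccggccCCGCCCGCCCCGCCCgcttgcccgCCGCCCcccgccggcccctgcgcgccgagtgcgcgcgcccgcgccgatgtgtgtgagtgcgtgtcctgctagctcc
Kmt2d: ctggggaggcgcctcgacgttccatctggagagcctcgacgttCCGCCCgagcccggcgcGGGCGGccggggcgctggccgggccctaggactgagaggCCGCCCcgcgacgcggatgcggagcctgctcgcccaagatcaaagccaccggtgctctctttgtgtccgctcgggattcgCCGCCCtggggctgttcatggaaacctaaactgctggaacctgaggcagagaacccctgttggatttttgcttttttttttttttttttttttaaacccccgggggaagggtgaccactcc
Kdm5b: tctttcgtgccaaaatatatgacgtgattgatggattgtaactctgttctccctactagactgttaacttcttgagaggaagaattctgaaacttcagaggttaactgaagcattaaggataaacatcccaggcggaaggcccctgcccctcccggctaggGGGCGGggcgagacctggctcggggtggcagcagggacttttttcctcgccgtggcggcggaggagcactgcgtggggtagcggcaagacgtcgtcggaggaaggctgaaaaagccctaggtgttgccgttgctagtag
Kdm5c: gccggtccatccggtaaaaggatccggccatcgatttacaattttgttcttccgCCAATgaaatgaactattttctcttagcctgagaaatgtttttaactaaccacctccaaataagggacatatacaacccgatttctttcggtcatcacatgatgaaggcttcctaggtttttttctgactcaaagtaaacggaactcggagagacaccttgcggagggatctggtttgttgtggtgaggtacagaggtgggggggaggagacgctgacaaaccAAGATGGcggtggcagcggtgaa

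The windows differed widely in base composition. The Kmt2c window had 56 CpG and 88.0% GC and held 12 matches to GGGCGG, some of them overlapping, whereas Kmt2d had 27 CpG and 4 such matches, and Kdm5b 17 CpG and 1. Kdm5c, at 13 CpG and 47.0% GC, had no GGGCGG, 1 CCAAT and 1 AAGATGG. RefSeq windows were found for 44 of the 65 members, 57 windows in all, and there was none for Kmt2e. GGGCGG occurred in 61.4% of the members' windows and in 35.7% of all 32851 windows, CCAAT in 45.6% and 37.4%, CCGGAAG in 14.0% and 8.86%, AAGATGG in 12.3% and 6.34%, TGACGTCA in 1.75% and 1.79%, and TATAAA in 5.26% and 13.6%. The median number of CpG was 26 in the members' windows and 7 over all windows. These matches describe the letters in the windows and were not tested.

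Dot1l itself was examined as a check of the labels. Its level was 105.2, 84.6 and 94.6 CPM in Dot1l(+/+) 1 to 3, 75.5, 65.6 and 76.2 CPM in Dot1l(fl/+) 1 to 3, and 64.9 and 99.1 CPM in those labelled Dot1l(fl/fl) 1 and 2. The library labelled Dot1l(fl/fl) 2 thus lay within the range of Dot1l(+/+), which puts its label in doubt but does not show it to be wrong. Over both Dot1l(fl/fl) libraries the log2 fold change of Dot1l against Dot1l(+/+) was -0.21 (SE 0.15). It was -0.04 (SE 0.14) in a fit that allowed for transcript length and GC content, so the level of Dot1l is a weak check. Counts over the whole gene do not show whether the floxed exon was deleted. Values given for Dot1l(fl/fl) are those of the libraries so labelled, and the counts over the members, and the values of named genes that moved by over 1.5 times, are also given without the library in doubt, which leaves 1 that is assumed to vary like the others. Library totals ranged from 13616922 to 43674673 counts and were lowest in Dot1l(fl/fl); the members took between 0.420% and 0.517% of the counts of a library. Transcripts of DA neurons were abundant, with Th, the rate-limiting enzyme of dopamine synthesis, at 649 to 1047 CPM in all libraries. Of 9 DA markers, 5 had an unadjusted p under 0.05 (edgeR), all lower in Dot1l(fl/fl) than in Dot1l(+/+) (Th, Ddc, Slc18a2, Nr4a2 and En1). Of all tested genes, 5.03% were lower at such a p. All 9 markers summed to 4613 and 3986 CPM in Dot1l(fl/fl) 1 and 2 and to 4857 to 5388 CPM in Dot1l(+/+). By this sum the library in doubt lay outside the range of Dot1l(+/+), unlike its level of Dot1l. GABAergic markers summed to 203.6 to 223.9 CPM in Dot1l(+/+) and to 264.0 and 234.7 CPM in Dot1l(fl/fl). The median log2 fold change of these 5 markers was -0.14, however, so most of them were lower in Dot1l(fl/fl). Blood markers summed to 13.7 to 18.1 CPM in Dot1l(+/+) and to 16.7 and 33.4 CPM in Dot1l(fl/fl). Across libraries, endothelial markers summed to at most 14.6 CPM, oligodendrocyte precursor markers to at most 14.1 CPM and microglial markers to at most 80.2 CPM, whereas glutamatergic markers reached 220.5 CPM and progenitor markers 270.1 CPM. The part of these cells in the results below was not tested, and fewer cells of a type and less RNA per cell cannot be told apart in such pools.

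In Dot1l(+/+) neurons the members were expressed over a wide range. Of the 65 genes, 51 had a mean of at least 10 CPM in every genotype, 14 were under 10 CPM in every genotype, and 10 were under 1 CPM in Dot1l(+/+). Levels of different genes are compared here per length, as CPM per kb of exon. The highest was Ehmt2 (also called G9a), which with its partner Ehmt1 places mono- and dimethylation on H3K9 in euchromatin, at 66.9 ± 4.57 CPM per kb (SD, n = 3). Kdm1a (LSD1), the flavin-dependent eraser of H3K4 methylation in the CoREST complex, followed at 52.1 ± 1.99 CPM per kb. The Jumonji erasers of H3K9 and H3K36 methylation Kdm4a and Kdm4b came after it, at 34.9 ± 3.12 and 34.5 ± 4.03 CPM per kb, a difference smaller than their spread. A writer and 3 erasers thus led the order, and Whsc1 (Nsd2), which dimethylates H3K36, came next at 23.8 ± 1.09 CPM per kb.

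**Figure D1:**
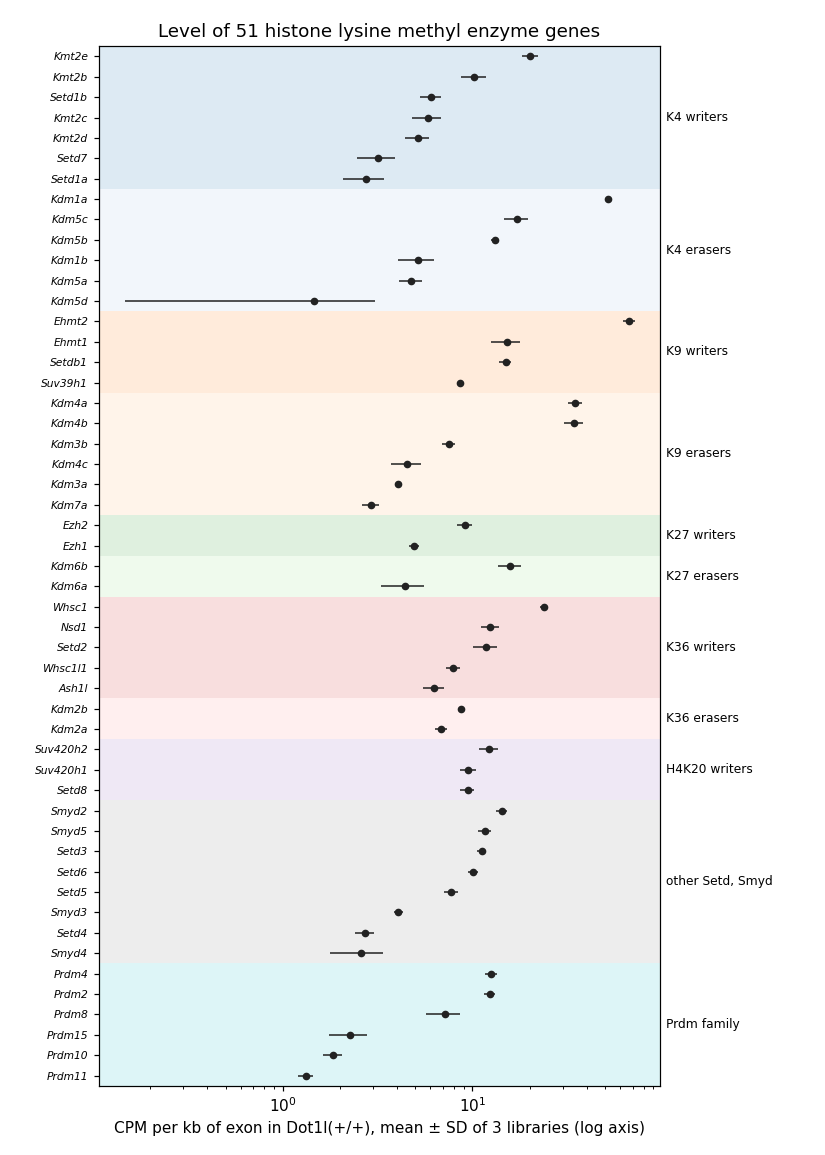
Level in Dot1l(+/+) of the 51 members with a mean of at least 10 CPM in every genotype, as mean CPM per kb of exon with SD (n = 3) on a log axis, grouped by the residue the enzyme acts on; bars are cut short where they would reach 0. Ehmt2 is highest at 66.9 CPM per kb, and Prdm11 is lowest at 1.32 CPM per kb.

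Levels also varied within each class. The highest of the H3K4 writers was Kmt2e, whose protein has a SET domain without clear catalytic activity, at 20.2 CPM per kb, with the enhancer-type writers Kmt2c and Kmt2d at 5.82 and 5.14 CPM per kb. Among the H3K27 enzymes, Ezh2, the catalytic subunit of Polycomb repressive complex 2, was at 9.11 CPM per kb and Ezh1, its paralogue that prevails in non-dividing cells, at 4.92 CPM per kb, and the eraser Kdm6b was at 15.80 CPM per kb. The ratio of Ezh2 to Ezh1 per kb was between 1.75 and 1.94 in Dot1l(+/+), between 2.09 and 2.83 in Dot1l(fl/+), and 1.88 and 2.88 in Dot1l(fl/fl). The Dot1l(fl/fl) libraries thus spanned most of the range of the other genotypes. Suv420h2, a writer of H4K20 methylation in heterochromatin, was at 12.3 CPM per kb, with Suv420h1 at 9.49 and Setd8, which monomethylates H4K20, at 9.44 CPM per kb; Suv420h1 and Setd8 did not differ beyond their spread. Kdm2b, a CpG-island-binding eraser of H3K36 methylation, was at 8.66 CPM per kb and Smyd2, a methyltransferase with targets outside histones, at 14.2 CPM per kb.

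The Prdm family, zinc-finger factors with a PR domain related to SET, was mostly low. Prdm4 and Prdm2 were at 12.6 and 12.4 CPM per kb and Prdm8, a neuronal repressor, at 7.15 CPM per kb, while Prdm16, a regulator of neural progenitors, was at 0.435 CPM per kb. The germ cell factors Prdm14 and Prdm9, Prdm1, Prdm6, Prdm12 and Prdm13 were all at or under 0.218 CPM per kb. Such levels rest on few reads, since a gene with no reads could still have had up to 3, or 0.0687 to 0.220 CPM depending on the library, with counting error alone considered.

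Dot1l(fl/fl) was compared with Dot1l(+/+) to ask which lysine methyl enzymes differed with 2 floxed Dot1l alleles. No member passed an adjusted p under 0.05 (edgeR quasi-likelihood test, Benjamini-Hochberg over 17988 genes), nor did any other gene (0% of all tested genes). At an unadjusted p under 0.05, 16 of the 63 members differed, 1 higher and 15 lower, where 9.27% of all tested genes did so, 4.24% higher and 5.03% lower. The median log2 fold change was -0.12 over the members, of which 46 were lower and 17 higher. Over all tested genes it was -0.00, and 50.4% of them were lower. Both Dot1l(fl/fl) libraries lay below every Dot1l(+/+) library for 14 members (22.2% of those tested) and for 11.6% of all tested genes. DESeq2 called 1 member, Kdm5b (adjusted p = 0.0466, DESeq2), where it called 0.831% of the 23694 genes it fitted, and 15 members were at an unadjusted p under 0.05, where 7.62% of those genes were.

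The counts were lower with an offset for transcript length and GC content together. The members' exons were long, with a median of 7110 bases against 3827 over all tested genes, and a GC content of 49.97% against 49.4%. Among the 3628 tested genes with exons at least as long as the median of the members, 14.0% were lower at an unadjusted p under 0.05 and the median log2 fold change was -0.12. With that offset, set per library, 5 members (7.94% of those tested) were at an unadjusted p under 0.05, near the 7.87% of all tested genes. All 5 were among the 16 named without it. The median over members was -0.02, with 35 lower and 28 higher. The 5 were Prdm8, Kmt2e, Setd6, Setd3 and Kdm6b.

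Single libraries also moved the counts. Without Dot1l(+/+) 3, the deepest library, 7 members were at an unadjusted p under 0.05, where 5.85% of all tested genes were. Without Dot1l(+/+) 1 there were 9 (6.71% of all tested genes), without Dot1l(+/+) 2 there were 20 (13.5%), and with Dot1l(fl/fl) 1 left out there were 8 (6.88%). Leaving out the Dot1l(fl/fl) library in doubt, number 2, gave 16 (11.1%), of which 12 were among those counted with it, and the median over members was -0.21. The 4 members counted with that library but not without it were Ehmt1, Kdm4a, Setd3 and Setd6. Then 3 members fell at an adjusted p under 0.05 (edgeR), where 0.258% of the tested genes were called. They were Kmt2d, by 0.87 on the log2 scale (SE 0.17, adjusted p = 0.0198, edgeR), Kdm6b, by 0.76 (SE 0.16, adjusted p = 0.0272, edgeR), and Setd1b, by 0.79 (SE 0.18, adjusted p = 0.0453, edgeR). With that library left out and the offset for length and GC content in the same fit, 1 of them was called, Kdm6b (log2 fold change -0.64, SE 0.13, adjusted p = 0.0161, edgeR), where 0.377% of the tested genes were.

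**Figure D2:**
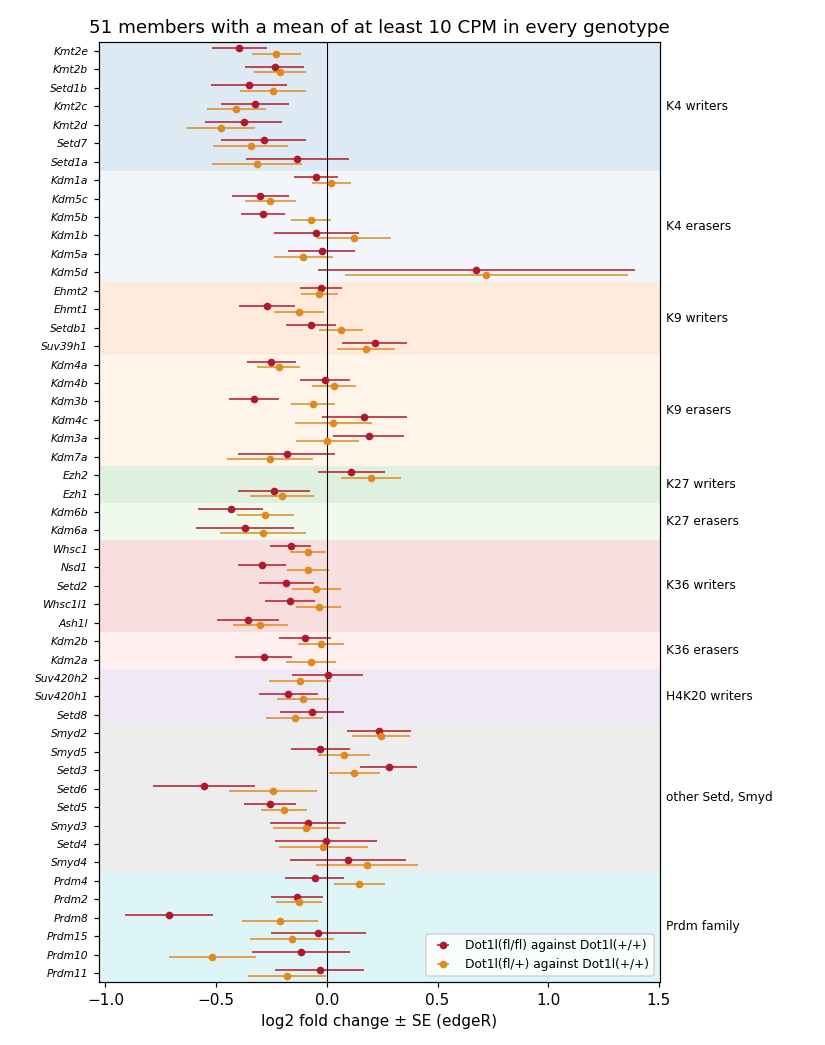
Log2 fold change with its SE from edgeR for the 51 members with a mean of at least 10 CPM in every genotype, Dot1l(fl/fl) in red and Dot1l(fl/+) in orange, each against Dot1l(+/+). The 7 H3K4 writers shown and the 5 H3K36 writers are left of 0 in both comparisons, and Prdm8 is lowest in Dot1l(fl/fl).

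The 7 members classed as H3K4 writers were all lower in Dot1l(fl/fl) than in Dot1l(+/+). At an unadjusted p under 0.05 were 3 of them, Kmt2c, Kmt2d and Kmt2e, the last without clear catalytic activity. The median log2 fold change of the 7 was -0.32 and became -0.13, with 6 of 7 lower, under the length and GC offset. For comparison with this and the classes below, 50.4% of all tested genes were lower, and 5.03% were lower at such a p. Of genes with exons at least as long as the members' median, 14.0% were lower at such a p. Kmt2e was at 224.2, 187.2 and 220.6 CPM in Dot1l(+/+), 195.4, 192.5 and 151.7 CPM in Dot1l(fl/+), and 146.9 and 173.7 CPM in Dot1l(fl/fl). Both Dot1l(fl/fl) libraries lay below every Dot1l(+/+) library, and the log2 fold change was -0.39 (SE 0.12, adjusted p = 0.281, edgeR). Kmt2d, the enhancer H3K4 monomethyltransferase, was at 105.8, 86.2 and 115.3 CPM in Dot1l(+/+), 68.3, 72.5 and 79.4 CPM in Dot1l(fl/+), and 56.0 and 102.4 CPM in those labelled Dot1l(fl/fl). The pair of Dot1l(fl/fl) libraries was split, with library 1 below and library 2 inside the Dot1l(+/+) range, as for Dot1l itself (log2 fold change -0.38, SE 0.17, adjusted p = 0.515, edgeR). Its paralogue Kmt2c was at 122.2, 96.2 and 135.6 CPM in Dot1l(+/+), 96.8, 92.0 and 77.9 CPM in Dot1l(fl/+), and 77.1 and 111.7 CPM in Dot1l(fl/fl), with the same split. Its log2 fold change was -0.61 (SE 0.17) without library 2 of Dot1l(fl/fl), -0.08 without library 1 and -0.21 without Dot1l(+/+) 3, and that of Kmt2d was -0.00 without library 1 of Dot1l(fl/fl). The median over the 7 writers was -0.52 without library 2, again with all of them lower. Setd1b, a subunit of a promoter-bound H3K4 complex, was at 42.2 and 72.7 CPM in Dot1l(fl/fl) against 66.1 to 83.4 CPM in Dot1l(+/+). For Setd1a 51.8% of the exon bases are shared with another gene on the same strand, so its counts are uncertain.

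Of the 6 H3K4 erasers, 5 were lower in Dot1l(fl/fl) and 2 were at an unadjusted p under 0.05. Kdm5b was at 205.7, 219.5 and 228.9 CPM in Dot1l(+/+), 208.0, 211.9 and 202.7 CPM in Dot1l(fl/+), and 178.6 and 178.7 CPM in Dot1l(fl/fl). The Dot1l(fl/fl) libraries were close together and below all 6 others (log2 fold change -0.29, SE 0.10, adjusted p = 0.331, edgeR), and the unadjusted p was 0.219 with the length and GC offset. Kdm5c, X-linked, was at 93.0 and 105.3 CPM in Dot1l(fl/fl) and 102.2 to 135.7 CPM in Dot1l(+/+), so the groups overlapped. Kdm1a was at 257.7 and 264.5 CPM in Dot1l(fl/fl), 258.6 to 297.6 CPM in Dot1l(fl/+) and 263.4 to 281.5 CPM in Dot1l(+/+), with a log2 fold change of -0.05 (SE 0.10).

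**Figure D3:**
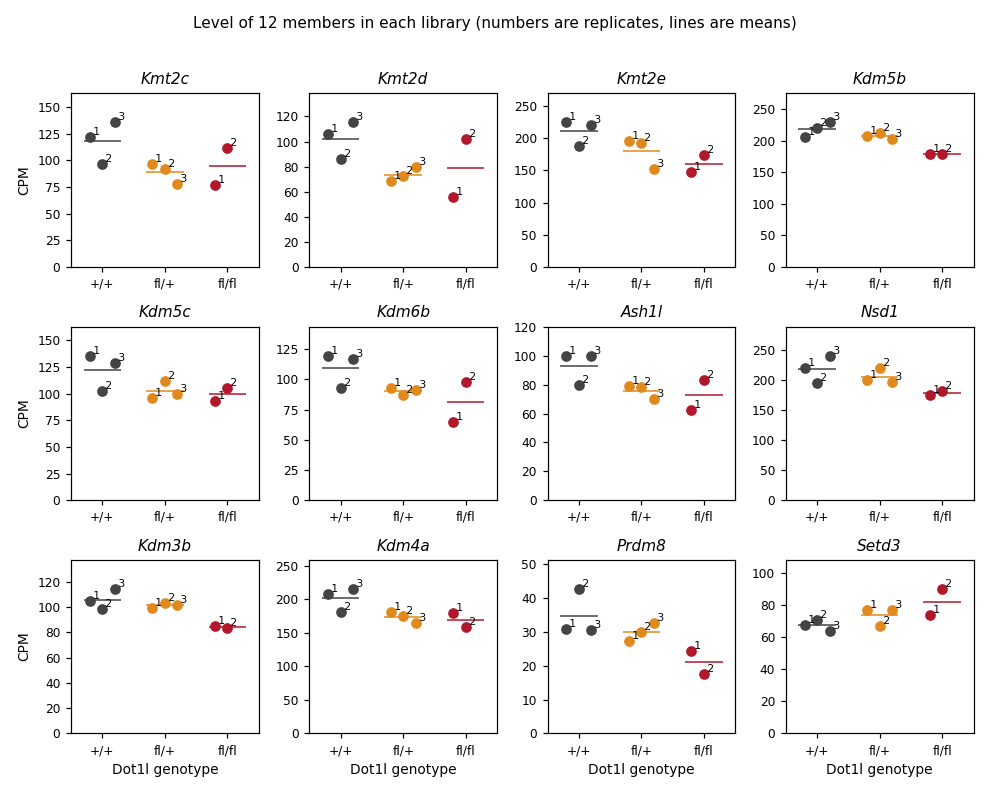
CPM of 12 members in each library (points, numbered by replicate) with the mean of each genotype (lines), Dot1l(+/+) in grey, Dot1l(fl/+) in orange and Dot1l(fl/fl) in red. Kmt2e, Kdm5b, Nsd1, Kdm3b, Kdm4a and Prdm8 are lower in both Dot1l(fl/fl) libraries than in every Dot1l(+/+) library. For Kmt2d the pair of Dot1l(fl/fl) libraries is at 56.0 and 102.4 CPM.

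Among the H3K36 enzymes all 5 writers and all 3 erasers were lower in Dot1l(fl/fl), with medians of -0.18 and -0.28, and 4 of 5 and 2 of 3 were lower with the offset. Without library 2 of Dot1l(fl/fl) all 8 were lower, with medians of -0.26 and -0.46. Nsd1, which mono- and dimethylates H3K36, was at 218.7, 194.2 and 240.0 CPM in Dot1l(+/+), 199.5, 219.8 and 196.3 CPM in Dot1l(fl/+), and 174.3 and 180.9 CPM in Dot1l(fl/fl). It was lower in both Dot1l(fl/fl) libraries than in all others (log2 fold change -0.29, SE 0.11, adjusted p = 0.363, edgeR). Ash1l, an H3K36 dimethyltransferase of active genes, was at 100.2, 79.6 and 99.7 CPM in Dot1l(+/+) and at 62.4 and 83.4 CPM in Dot1l(fl/fl), and the ranges overlapped (log2 fold change -0.36, SE 0.14, adjusted p = 0.409, edgeR); it was -0.58 without library 2 of that genotype and -0.16 without library 1. Setd2, which places trimethylation on H3K36 behind elongating RNA polymerase, was at 105.7 and 117.4 CPM in Dot1l(fl/fl) and overlapped the 108.8 to 145.6 CPM of Dot1l(+/+) (log2 fold change -0.18, SE 0.12, unadjusted p = 0.152 from edgeR), and ranged from -0.28 without Dot1l(+/+) 2 to -0.08 without Dot1l(+/+) 1. Kdm2a, named once its value was known, was at 72.1 and 90.9 CPM in Dot1l(fl/fl), reaching just into the 90.8 to 104.5 CPM of Dot1l(+/+) (log2 fold change -0.28, SE 0.13, and -0.46 without library 2 of Dot1l(fl/fl) or -0.13 without library 1).

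Enzymes of silenced chromatin were mixed. For H3K9, 3 of 6 writers and 4 of 7 erasers were lower, with medians of 0.06 and -0.01, which turned to -0.09 and 0.02 without library 2 of Dot1l(fl/fl). Ehmt2 was at 394.8, 361.8 and 345.6 CPM in Dot1l(+/+) and at 380.5 and 341.2 CPM in Dot1l(fl/fl), and its log2 fold change of -0.03 (SE 0.10) turned positive with the length and GC offset. Ehmt1 was at 99.5 and 104.5 CPM in Dot1l(fl/fl), just below the 104.8 to 145.8 CPM of Dot1l(+/+) (log2 fold change -0.27, SE 0.13, adjusted p = 0.524, edgeR), a value that was -0.13 without Dot1l(+/+) 3. Setdb1, which trimethylates H3K9 at retroelements, showed a difference of -0.07 on the log2 scale (SE 0.11), or -0.00 without library 2 of Dot1l(fl/fl), and Suv39h1, the X-linked heterochromatin writer, one of 0.22 (SE 0.15), or 0.10 without library 1, with Dot1l(fl/fl) at 56.4 and 48.4 CPM and Dot1l(+/+) at 43.5 to 46.4 CPM. Of the exon bases of Suv39h1, 14.6% lie opposite another gene. Among the erasers, Kdm3b was at 104.6, 98.5 and 114.6 CPM in Dot1l(+/+), 99.02, 103.5 and 102.0 CPM in Dot1l(fl/+), and 85.2 and 83.5 CPM in Dot1l(fl/fl). The Dot1l(fl/fl) libraries were the lowest, with a log2 fold change of -0.33 (SE 0.11, adjusted p = 0.331, edgeR), and 24.6% of its exon bases lie opposite another gene. Kdm4a was at 179.9 and 159.2 CPM in Dot1l(fl/fl) and 181.5 to 216.0 CPM in Dot1l(+/+), with a log2 fold change of -0.17 without library 2 of Dot1l(fl/fl), while Kdm4b was at 174.4 and 161.2 CPM within 146.2 to 182.8 CPM.

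Of the H3K27 enzymes, Ezh2 was at 53.6 and 78.0 CPM in Dot1l(fl/fl) around the 54.9 to 65.4 CPM of Dot1l(+/+). Its log2 fold change was 0.11 (SE 0.15), and it turned to -0.18 without library 2 of that genotype. Ezh1 was at 31.8 and 30.2 CPM in Dot1l(fl/fl) and at 34.9 to 39.1 CPM in Dot1l(+/+) (log2 fold change -0.24, SE 0.16, unadjusted p = 0.152 from edgeR). The eraser Kdm6b was at 119.9, 92.7 and 117.1 CPM in Dot1l(+/+), 93.3, 87.5 and 91.1 CPM in Dot1l(fl/+), and 64.9 and 98.1 CPM in those labelled Dot1l(fl/fl). Library 1 was below all others and library 2 within the Dot1l(+/+) range (log2 fold change -0.43, SE 0.15, adjusted p = 0.314, edgeR), and without library 1 the log2 fold change was -0.17. For Setd8, the H4K20 monomethyltransferase, the log2 fold change was -0.07 (SE 0.14).

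Outside the residue classes, Prdm8 had the smallest p of the members. It was at 30.8, 42.8 and 30.5 CPM in Dot1l(+/+), 27.4, 29.9 and 32.7 CPM in Dot1l(fl/+), and 24.5 and 17.7 CPM in Dot1l(fl/fl). Both Dot1l(fl/fl) libraries were below all 6 others, and the log2 fold change was -0.71 (SE 0.20, adjusted p = 0.248, edgeR) and -0.69 with the length and GC offset. For Prdm8, 29.1% of the exon bases lie opposite another gene, and the strand setting of the counting was not given in the sources used here. Setd6, a methyltransferase of non-histone targets, was at 18.9, 18.2 and 20.4 CPM in Dot1l(+/+), 17.6, 13.1 and 17.8 CPM in Dot1l(fl/+), and 15.5 and 10.6 CPM in Dot1l(fl/fl) (log2 fold change -0.55, SE 0.23, adjusted p = 0.447, edgeR), or -0.31 without library 2 of Dot1l(fl/fl) and -0.86 without library 1. The 1 higher member, Setd3, which methylates a histidine of actin, was at 67.6, 70.6 and 63.9 CPM in Dot1l(+/+) and at 73.7 and 90.0 CPM in Dot1l(fl/fl) (log2 fold change 0.28, SE 0.13, and 0.13 without library 2 of Dot1l(fl/fl)). Setd5, named like Setd3 once its value was known, was at 111.1 and 126.5 CPM in Dot1l(fl/fl) against 133.5 to 155.3 CPM (log2 fold change -0.26, SE 0.12, and -0.17 without library 1 of Dot1l(fl/fl)). Prdm16 was at 5.03 and 4.75 CPM in Dot1l(fl/fl) within the 2.74 to 5.97 CPM of Dot1l(+/+).

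**Figure D4:**
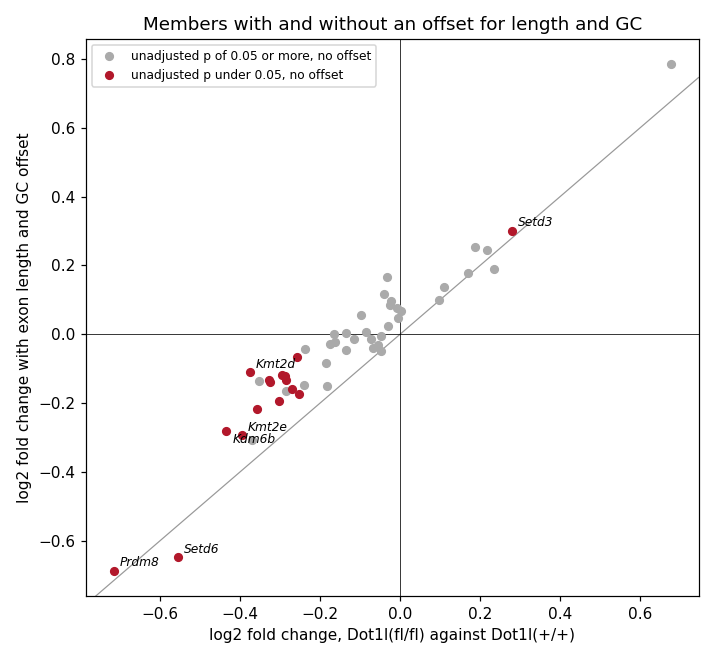
Log2 fold change of Dot1l(fl/fl) against Dot1l(+/+) without (x axis) and with (y axis) an offset per library for exon length and GC content, for the 51 members with at least 10 CPM; the grey line marks equal values. Most members move up toward 0, Setd6 moves down from -0.55 to -0.65, and Prdm8 and Setd3 stay near the line.

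Dot1l(fl/+) was compared with Dot1l(+/+) to ask which members differed with 1 floxed allele. This comparison shares its Dot1l(+/+) libraries with the one above, so the values of the same genes are not independent. No gene passed an adjusted p under 0.05 (edgeR, 0% of all tested genes). At an unadjusted p under 0.05 there were 8 members, all lower, where 5.02% of all tested genes differed and 2.86% were lower. The median over members was -0.09, with 42 lower and 21 higher, against -0.01 over all tested genes, of which 51.0% were lower. All 3 Dot1l(fl/+) libraries were below every Dot1l(+/+) library for 10 members (15.9%) and for 5.97% of all tested genes. With the length and GC offset 5 members (7.94% of those tested) had an unadjusted p under 0.05, against 4.97% of all tested genes, and the median was -0.01. Without Dot1l(+/+) 1, Dot1l(+/+) 3 or Dot1l(fl/+) 3 there were 4, 4 and 3 such members, where 3.93%, 3.60% and 4.03% of all tested genes were, and without Dot1l(+/+) 2 there were 12, where 8.43% were.

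Of the 8 members, Kmt2d and Kmt2c had the smallest p and Prdm10 the lowest log2 fold change. Kmt2d was lower in all 3 Dot1l(fl/+) libraries than in every Dot1l(+/+) library, with a log2 fold change of -0.48 (SE 0.15, unadjusted p = 0.00459 from edgeR). Kmt2c had one of -0.41 (SE 0.13) with overlapping ranges, and Kmt2e one of -0.23 (SE 0.11) that was -0.12 without Dot1l(fl/+) 3. The 7 H3K4 writers examined were all lower, with a median of -0.32, and they were lower with the offset too, with a median of -0.22. Kmt2c and Kmt2d were at an unadjusted p of 0.00741 and 0.0359 (edgeR) with the offset. The other members were Prdm10 (log2 fold change -0.52, SE 0.20), at 13.5, 10.97 and 11.3 CPM against 18.6, 14.9 and 17.8 CPM in Dot1l(+/+), Ash1l (-0.30, SE 0.12), Kdm5c (-0.25, SE 0.11), Kdm4a (-0.22, SE 0.10) and Kdm6b (-0.28, SE 0.13). The values of Prdm10 in Dot1l(fl/fl), 16.1 and 15.5 CPM, lay within those of Dot1l(+/+).

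The direct comparison of Dot1l(fl/fl) with Dot1l(fl/+) tests whether 2 floxed alleles differed from 1. No gene passed an adjusted p under 0.05 (edgeR, 0% of all tested genes). At an unadjusted p under 0.05 there were 3 members, all lower, where 4.02% of all tested genes differed and 2.16% were lower, and the median over members was -0.04. The 3 members were Prdm8 (log2 fold change -0.50, SE 0.20), Kdm3b (-0.27, SE 0.11) and Kdm5b (-0.22, SE 0.10), whose levels in Dot1l(fl/+) overlapped those in Dot1l(+/+). Without Dot1l(fl/+) 2 or 3 there was 1 such member, where 3.01% and 4.74% of all tested genes were, and with Dot1l(fl/fl) 1 or 2 left out there were 5 and 6, where 5.43% and 5.71% were. None of Prdm8, Kdm3b and Kdm5b was among the 6, at log2 fold changes of -0.29, -0.25 and -0.22, and that of Prdm8 was -0.77 without library 1. For Kmt2d the log2 fold change was 0.11 (SE 0.17) and for Kmt2c 0.08 (SE 0.15), both smaller than their errors, but for Kmt2d it turned to -0.39 (SE 0.17, adjusted p = 0.852, edgeR) without the library in doubt.

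Kdm5d and Kdm6a, from the Y and X chromosomes, differed between libraries that also differed in Xist and chromosome Y transcripts. Kdm5d, the Y-linked paralogue of Kdm5c, was at 0, 18.6 and 48.1 CPM in Dot1l(+/+) 1 to 3, 29.1, 34.8 and 47.3 CPM in Dot1l(fl/+) 1 to 3, and 21.8 and 50.4 CPM in Dot1l(fl/fl). Xist, expressed from the inactive X chromosome of females, was at 1167, 415.9 and 0 CPM, 320.6, 265.7 and 3.16 CPM, and 311.6 and 1.152 CPM in the same order. Dot1l(+/+) 1 thus had Xist and no Kdm5d reads, where 0 reads allow up to 0.114 CPM, Dot1l(+/+) 3, Dot1l(fl/+) 3 and the library labelled Dot1l(fl/fl) 2 had little Xist, and the other 4 had both. Since the libraries fall into such separate sets, no correlation with Xist over all 8 is given. Kdm6a, the X-linked H3K27 eraser that escapes X inactivation, was at 47.2 CPM in Dot1l(+/+) 1, at 35.98, 39.2, 29.7 and 29.3 CPM in the 4 libraries with both, and at 28.2, 22.1 and 28.1 CPM in the 3 with little Xist. Its highest level was in the library with little chromosome Y transcript and its lowest in one with little Xist, and the log2 fold change of Dot1l(fl/fl) against Dot1l(+/+) of -0.37 (SE 0.22) was -0.16 without Dot1l(+/+) 1, -0.01 within the libraries with little Xist and -0.30 within those with both, with 1 library a genotype and no test. Kdm5c, which also escapes, did not follow that order, at 135.7 CPM in Dot1l(+/+) 1 and 128.5 CPM in Dot1l(+/+) 3. The log2 fold change of Kdm5d was 0.68 (SE 0.71).

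**Figure D5:**
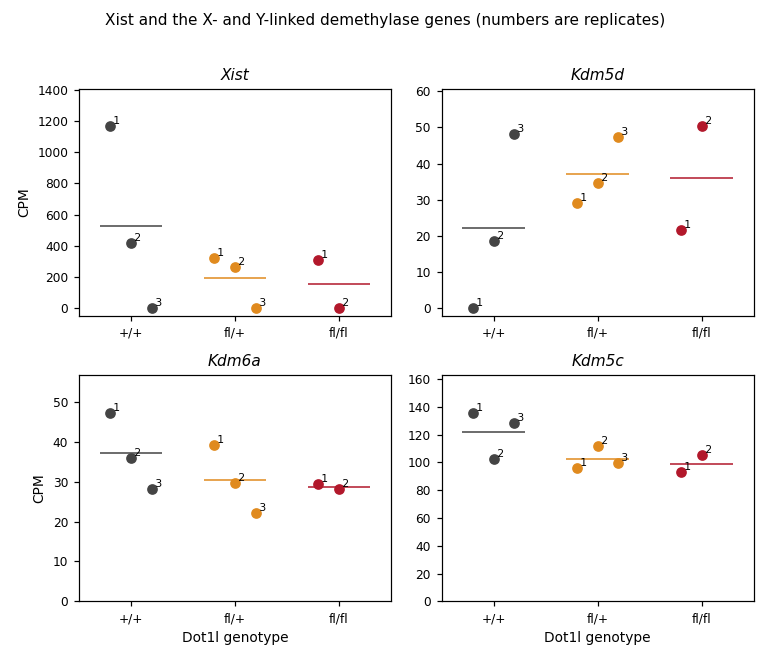
CPM of Xist, Kdm5d, Kdm6a and Kdm5c in each library (points, numbered by replicate; lines are means of a genotype). Libraries with little Xist have the most Kdm5d, and Kdm6a is highest in Dot1l(+/+) 1, which has no Kdm5d reads.

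The comparisons were repeated within libraries alike in Xist and chromosome Y transcripts, an analysis added after the data were seen. In the 1 library per genotype with little Xist, 45 of 63 members were lower in Dot1l(fl/fl) than in Dot1l(+/+), with a median log2 ratio of -0.20, and in those with both Xist and Y transcripts 39 were lower, with a median of -0.04. For Dot1l(fl/+) the medians were -0.22 and 0.04, so that the sign over all members turned within the libraries with both. There 1 Dot1l(+/+) library, number 2, stood for the controls. Among those with little Xist the control was Dot1l(+/+) 3, whose median over members was the highest of all libraries (0.11 above the Dot1l(+/+) mean, log2 scale). Its Dot1l(fl/fl) library was the one in doubt. These ratios were taken for the members alone, so no share over all genes stands beside them.

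Partners and relatives of the enzymes were examined from lists of 61 names, of which 55 genes were tested. None passed an adjusted p under 0.05 in any comparison (edgeR). At an unadjusted p under 0.05, 5 were lower and 1 was higher in Dot1l(fl/fl) than in Dot1l(+/+), where 9.27% of all tested genes differed. In the H3K4 complexes 2 of 12 were lower. Hcfc1, a shared subunit of Set1-type complexes, was at 163.7 and 190.4 CPM in Dot1l(fl/fl) and 200.5 to 252.6 CPM in Dot1l(+/+) (log2 fold change -0.36, SE 0.11), and for Cxxc1, which binds unmethylated CpG, the log2 fold change was -0.29 (SE 0.14), or -0.14 without library 2 of Dot1l(fl/fl) and -0.46 without library 1. Of 9 partners of Polycomb repressive complex 2, Jarid2, which recruits it to chromatin, was lower (log2 fold change -0.34, SE 0.12), at 77.0 and 86.5 CPM against 95.0 to 111.2 CPM. Of 9 readers and cofactors of H3K9 methylation, Atf7ip, the partner of Setdb1, was at 138.0, 108.1 and 134.0 CPM in Dot1l(+/+), 132.1, 136.9 and 115.7 CPM in Dot1l(fl/+), and 88.9 and 100.6 CPM in Dot1l(fl/fl). Both Dot1l(fl/fl) libraries were below all others (log2 fold change -0.42, SE 0.13, adjusted p = 0.268, edgeR; DESeq2 gave an adjusted p of 0.0478). Cdyl, a chromodomain reader, had a log2 fold change of -0.65 (SE 0.27) at 6.12 and 7.06 CPM against 9.39 to 11.1 CPM. Of 7 arginine methyltransferases, Prmt5, the main symmetric dimethyltransferase, was higher (0.27, SE 0.12, and 0.16 without library 1 of Dot1l(fl/fl)), at 127.9 and 110.2 CPM against 88.3 to 105.0 CPM. None of 10 CoREST partners and none of 8 other lysine methyl enzymes was at an unadjusted p under 0.05. With 1 floxed allele 1 of the 55 partners was lower at such a p than in Dot1l(+/+), where 2.86% of all tested genes were. It was Hcfc1 (-0.22, SE 0.10, and -0.13 without Dot1l(+/+) 3). Between 2 and 1 floxed alleles 2 of the 55 were lower, where 2.16% of all tested genes were. They were Atf7ip (-0.44, SE 0.13) and Aebp2 (-0.37, SE 0.17), a cofactor of Polycomb repressive complex 2. Without Dot1l(+/+) 1 the 6 partners with such a p in Dot1l(fl/fl) became 3, whereas leaving out Dot1l(+/+) 2 made them 10 and leaving out the library labelled Dot1l(fl/fl) 2 made them 13, where 6.71%, 13.5% and 11.1% of all tested genes were at such a p.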

How the data were processed

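The data were RNA-seq of sorted YFP-positive midbrain DA neurons, 8 libraries of 3 genotypes. What the authors deposited for each library were raw counts, whole numbers of reads by Ensembl gene identifier. Per the study's methods and the submitters' processing notes, reads of a strand-preserving kit were trimmed with Trimmomatic 0.30 and mapped to GRCm38.p4; the aligner, the counter and its strand setting were not given in the sources used here, so that counts of overlapping or duplicated genes are uncertain. Further tables deposited by the authors held their own comparisons (mean signal, log2 fold change, p-value), of which gene names alone were used.

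Counts were tested with edgeR 4.0.16 (R 4.3.3; TMM, filterByExpr, quasi-likelihood test, 3 genotypes in 1 fit without covariates), with Benjamini-Hochberg adjustment over 17988 genes and a threshold of 0.05; the procedure was checked on simulated counts. CPM used TMM-scaled totals, and log2 CPM a prior count of 2. Exon length and GC content came from the GENCODE M21 annotation of GRCm38, in which 98.9% of the gene identifiers were found. The library totals were 13616922 to 43674673 counts, and p-values measure the spread between the pools.

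The members and lists were chosen with earlier results of these data known. Genes were named by a rule: per comparison up to 10 members with the smallest unadjusted p under 0.05; the 3 highest per kb in Dot1l(+/+) and the highest of each class; a list of 17 enzymes, Ezh1 to Prdm16; Dot1l; and up to 3 genes of each partner list at an unadjusted p under 0.05. Of the partner names, 5 matched no gene. The study's methods describe sets of littermates, 1 embryo of each genotype, but neither they nor the labels say that a replicate number marks such a set. Same-numbered libraries did not vary together, but so few libraries cannot settle whether they were paired. The main fit used no block, and a block was fitted as an alternative. Alternatives were RLE size factors, no filter, DESeq2 1.42.0, the 2 genotypes alone, the replicate block, splines (4 degrees of freedom) for length and GC content as an offset, both, the level of chromosome Y transcripts as a covariate, and each library left out.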

Additional observations from a re-analysis of the deposited data

How the results depend on the processing

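For Dot1l(fl/fl) against Dot1l(+/+), members past the adjusted threshold numbered 0, but 1 with no filter (Prdm8), 1 with DESeq2 (Kdm5b), 1 with the length and GC offset and library 2 of Dot1l(fl/fl) left out, a setting added after the data were seen (Kdm6b), and 0 to 3 with 1 library left out. Members at an unadjusted p under 0.05 numbered 16, but 9 with the 2 genotypes alone, 5 with the length and GC offset, 9 with that offset and library 2 of Dot1l(fl/fl) left out, and 7 to 20 with 1 library left out. Of all genes, 106 of 23694 passed the adjusted threshold with no filter. An unadjusted p under 0.05 was found for 1311 of 16940 genes with the 2 genotypes alone and for 7.87% with the offset. The median log2 fold change over all members was -0.0210 with the offset and -0.205 to -0.0816 with 1 library left out. For Dot1l(fl/+) against Dot1l(+/+), 2 members (Kmt2d and Kdm5d) and 11 of all 23694 genes passed the adjusted threshold with no filter. The 8 members at an unadjusted p under 0.05 became 5 with the offset, where 4.97% of all tested genes were. They became 5 with chromosome Y transcripts as a covariate, where 787 of 17988 genes were, and 3 to 12 with 1 library left out. The median became -0.00621 with the offset (-0.00484 with library 2 of Dot1l(fl/fl) also left out), and in ratios added after the data were seen -0.22 within libraries with little Xist and 0.0404 within those with both Xist and Y transcripts. For Dot1l(fl/fl) against Dot1l(fl/+), 1 member remained with the offset and 1 to 6 with 1 library left out. Partners in Dot1l(fl/fl) against Dot1l(+/+) numbered 3 to 13 with 1 library left out. The cause of these shifts was not tested.

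The sign turned for small differences of Dot1l(fl/fl) against Dot1l(+/+). Ehmt2 was at 0.0842 with the offset, 0.0348 with chromosome Y transcripts as a covariate, 0.11 with the offset and library 2 of Dot1l(fl/fl) left out, and -0.11 to 0.0501 with 1 library left out. With the offset and that library left out, Setdb1 was at 0.0768 and Ezh2 at -0.0829. With 1 library left out, Ezh2 ranged from -0.18 to 0.36, Kdm5d from -0.0484 to 1.92, Setd8 from -0.12 to 0.00173 and Dot1l from -0.55 to 0.0625.

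Same-numbered libraries of different genotypes had correlations of their deviations between -0.031 and 0.045, and differently numbered ones between -0.051 and 0.045. The numbers thus gave no sign of pairing, though the study's methods describe sets of littermates. The deviations of the 2 Dot1l(fl/fl) libraries mirror each other, so this check says little about pairing. With the replicate block 11 members of Dot1l(fl/fl) against Dot1l(+/+) had an unadjusted p under 0.05, 9 of them among the 16. Of all tested genes, 1383 of 17988 had such a p. Past the adjusted threshold were 0 members and 6 of all genes. With the block and the offset together there were 7 members at such a p, where 1345 of 17988 genes were, and the median over members was -0.0148. In Dot1l(fl/+) against Dot1l(+/+) there were 4, where 850 of 17988 genes were. In the same fit Ehmt2 was at 0.0537 and Setdb1 at 0.00173 in Dot1l(fl/fl) against Dot1l(+/+).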
